A study of Homo sapiens with 14 samples.

Results

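NRAS, HRAS, NF1, RASA2, CBL, PTPN11, SOS1 and BRAF are 8 core genes of RAS signalling, and their transcripts were followed through early resistance to gilteritinib in the human MOLM14 line of acute myeloid leukaemia, which carries an internal tandem duplication of the receptor FLT3. The genes were chosen by name for their place in the pathway, with earlier results of these data known. Of these, 8 of 8 were found among the 39293 gene identifiers of the deposited table. RNA-seq covered 14 libraries. Untreated parental MOLM14 cells, with neither drug nor added ligand, gave 3 libraries. Early resistant lines were kept with FGF2 (4 libraries, from flasks 5 to 8) or with FLT3 ligand, written FL (4 libraries, from flasks 9 to 12), each ligand at 10 ng/mL, and were exposed to the FLT3 inhibitor gilteritinib at 100 nM for 48 h. The acute arm is parental cells given gilteritinib at the same 100 nM for 48 h, with 1 library each for no ligand, FGF2 and FL. The early and acute cells therefore share this 48 h exposure, while the parental cells had neither drug nor ligand. Early against parental thus holds drug exposure, ligand and resistance together. Early against acute holds resistance with the drug present, but also ligand and culture history. Every early library had a ligand, while the acute arm mixes libraries with no ligand, FGF2 and FL. These parts cannot be told apart. The spread of the acute arm includes the differences between ligand states. The labels do not state whether the parental libraries are from independent cultures, so p-values measure the spread between these libraries, which may be technical in part.

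RAS proteins are small GTPases that pass the signal of receptors such as FLT3 and the FGF receptors to the RAF, MEK and ERK kinases. Exchange factors such as SOS1 load them with GTP, with the phosphatase SHP2 (encoded by PTPN11) acting upstream, while NF1 and RASA2 stimulate GTP hydrolysis and switch them off. CBL is a ubiquitin ligase that marks activated receptors, FLT3 among them, for degradation, and BRAF is a kinase that binds GTP-loaded RAS. Mutations of several of these genes are known in patients with leukaemia treated with FLT3 inhibitors. The libraries here measure transcript levels only, and neither mutations nor protein activity were analysed.

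The libraries held 25723575 to 33075041 estimated counts, and 15756 genes were tested, all 8 members among them. Levels are CPM, that is counts put on a shared library depth, and changes are given as log2 fold changes ± standard error from edgeR's quasi-likelihood test, called at an adjusted p under 0.05 over all genes tested. Summed levels of 6 myeloid markers (CD33, SPI1, ANPEP, CSF1R, LYZ and FLT3) differed by arm, at 705 to 763 CPM in FGF2 early, 774 to 789 CPM in parental, 1015 to 1479 CPM in FL early and 1268 to 1497 CPM in acute libraries. None of these markers was at 0 throughout an arm, although ANPEP alone reached only 0.233 to 3.66 CPM. LYZ alone ranged from 66.5 to 908 CPM over the libraries, so the sums depend much on it. Summed T cell markers stayed at 0 to 1.10 CPM, B cell markers at 0.275 to 0.809 CPM and epithelial markers at 0.103 to 0.836 CPM, and 3 erythroid markers were at 0 in every library. Ribosomal protein genes took 16.3% to 19.7% of the counts in the acute libraries and 10.8% to 13.0% in the others. The 8 members together took 0.0411% to 0.0490% of the counts in the acute libraries and 0.0569% to 0.0662% in the others. The part of these differences in the results was not tested. FL early replicates 1 and 4 stood apart from replicates 2 and 3. The mean chi-square per gene was 15.5 between replicates 2 and 3 and 41.6 to 56.0 for every FL early pair with replicate 1 or 4, beside 9.27 to 18.7 between FGF2 early libraries. With both left out, the early against parental changes of the called members were -0.29 for NRAS (adjusted p = 0.00347), 0.45 for CBL (0.00118), -0.15 for PTPN11 (0.0467) and 0.50 for SOS1 (0.0363). In FL early against parental cells NRAS (-0.29, adjusted p = 0.0206) and CBL (0.41, 0.0118) were still called and SOS1 was not (0.43, 0.171).

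Between early resistant and parental cells, CBL and SOS1 rose, NRAS and PTPN11 fell, and HRAS, NF1, RASA2 and BRAF were not called. That is 4 of 8 members, where 29.8% of all genes tested were called, 13.7% higher and 16.1% lower. CBL was 1.33-fold higher and SOS1 1.45-fold higher, and NRAS was 1.24-fold lower. Between early and acute cells, 3 of 8 members were called, NRAS, CBL and PTPN11, all higher in early cells, where 66.0% of all genes were called, 32.1% higher and 33.9% lower. Between acute and parental cells, NRAS, CBL and PTPN11 fell and SOS1 rose, 4 of 8 members, where 62.6% of all genes were called, 32.3% higher and 30.3% lower. With 8 genes, nothing particular to the members is read from these counts. The median log2 change of the members was 0.04 in early against parental, beside 0.01 over all genes tested. In early against acute it was 0.08, beside -0.04 over all genes, and in acute against parental -0.05, beside 0.07. The 3 comparisons share libraries, so their values are not independent of each other. Upper quartile scaling moved the median of all genes in acute against parental cells from 0.07 to 0.18 and in early against acute cells from -0.04 to -0.16, and changes that involve acute cells are to be read relative to that shift. None of the called member changes turned direction under it.

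**Figure D1:**
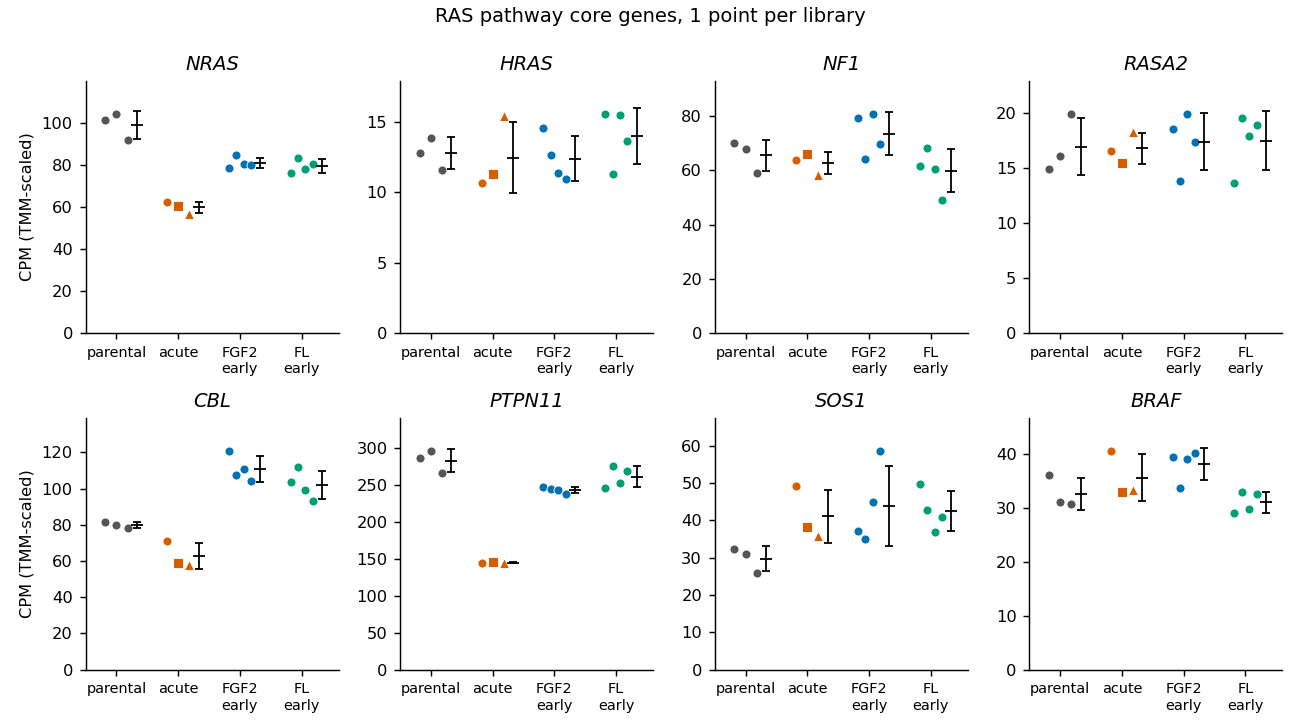
Levels of the 8 members in each of the 14 libraries, in CPM (1 panel per gene, y axis from 0). Points are libraries, bars are the mean ± SD of an arm, and in the acute arm the circle, square and triangle mark no ligand, FGF2 and FL. The NRAS and PTPN11 means are highest in parental and lowest in acute cells, CBL is highest in early cells, and the arms overlap for HRAS, NF1 and RASA2.

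NRAS (ENSG00000213281) and HRAS (ENSG00000174775) encode the RAS GTPases of the set. Their promoters are shown together with that of SOS1 because NRAS and SOS1 moved in opposite directions in the same cells while HRAS was not called. Each window has 300 bases around the annotated start, from RefSeq on GRCh38.p14, and reads 5′ to 3′ on the gene's strand. Capitals mark matches, on either strand, to 8 short motifs that were searched. They are the GC box GGGCGG, the E box CACGTG, the CCAAT box, the ETS motif CCGGAAG, the cyclic AMP element TGACGTCA, the cell cycle element TTTGAA and the E2F motifs TTTCGCGC and TTTGGCGC. The NRAS window is chr1:114716722-114717021 and the HRAS window chr11:535527-535826. The SOS1 window is the first of 2 in the table, chr2:39124819-39125118, and all 3 genes lie on the minus strand.
NRAS: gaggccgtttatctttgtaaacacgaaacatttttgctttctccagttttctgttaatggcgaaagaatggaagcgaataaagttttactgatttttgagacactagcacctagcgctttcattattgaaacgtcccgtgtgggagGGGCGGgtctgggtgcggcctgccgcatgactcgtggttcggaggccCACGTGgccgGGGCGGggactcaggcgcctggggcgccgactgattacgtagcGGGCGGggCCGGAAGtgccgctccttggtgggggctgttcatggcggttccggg
HRAS: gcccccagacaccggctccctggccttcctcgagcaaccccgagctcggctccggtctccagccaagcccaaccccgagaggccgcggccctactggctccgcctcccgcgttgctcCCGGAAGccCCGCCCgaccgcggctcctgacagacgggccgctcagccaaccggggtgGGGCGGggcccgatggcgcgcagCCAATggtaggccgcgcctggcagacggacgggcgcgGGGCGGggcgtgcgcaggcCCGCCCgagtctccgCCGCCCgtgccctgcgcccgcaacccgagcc
SOS1: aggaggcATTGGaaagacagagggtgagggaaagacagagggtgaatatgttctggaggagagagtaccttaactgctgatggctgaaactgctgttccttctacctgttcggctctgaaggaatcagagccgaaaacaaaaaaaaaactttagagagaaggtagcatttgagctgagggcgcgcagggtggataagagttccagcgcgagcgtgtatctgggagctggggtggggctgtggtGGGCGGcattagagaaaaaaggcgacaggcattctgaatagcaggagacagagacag
The NRAS window held 3 GC boxes, 1 E box and 1 ETS motif, and the HRAS window held 5 GC boxes, 1 CCAAT box and 1 ETS motif. The printed SOS1 window held 1 GC box and 1 CCAAT box, and its other window, chr2:39121002-39121301, held none of the 8 motifs and had 65.7% GC. Over all 35116 windows of the table, 45.0% held a GC box, 7.26% the E box, 34.6% a CCAAT box and 10.3% the ETS motif. GC content was 57.3% for NRAS, 78.0% for HRAS and 51.0% for the printed SOS1 window, beside a median of 58.7% over all windows. The NF1 window (chr17:31094727-31095026, plus strand) held 1 cyclic AMP element, which 1.85% of windows held, and 1 ETS motif. The BRAF window (chr7:140924219-140924518, minus strand) held 2 CCAAT boxes. RASA2, CBL and PTPN11 have no entry. A match describes the letters in the window, and nothing here measured binding.

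NRAS transcript was 101, 104 and 91.6 CPM in the parental libraries. It was 78.7, 84.6, 80.3 and 79.9 CPM in the FGF2 early libraries and 76.0, 83.4, 77.9 and 80.4 CPM in the FL early ones. The acute libraries held 62.1 CPM without ligand, 60.5 CPM with FGF2 and 56.8 CPM with FL. Every early library lay below every parental library and above every acute one, so the arms did not overlap. NRAS fell by 0.31 on the log2 scale in early against parental cells (SE 0.06, adjusted p = 0.00125), and it was called in 23 of 23 alternative settings. Against acute cells, early cells held more NRAS, with a log2 change of 0.42 ± 0.06 (adjusted p = 1.57e-05). Acute cells held 1.66-fold less than parental cells (log2 change -0.73 ± 0.07, adjusted p = 4.38e-07). In these bulk libraries, fewer cells of a type and less RNA per cell cannot be told apart. The acute libraries also had the higher ribosomal protein share given above. With ribosomal protein and mitochondrial genes left out of the scaling, the NRAS change in acute against parental cells was -0.73, as with them. That setting hardly moved the median of all genes, from 0.072 to 0.069, so the part of the ribosomal share was not tested by it. Over all alternative settings the NRAS change ran from -0.79 to -0.62 and was called in 22 of 22. Both early lines fell against parental cells, with log2 changes of -0.29 for FGF2 (adjusted p = 0.00336) and -0.32 for FL (adjusted p = 0.00369). The difference between the lines was not called.

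HRAS lay between 10.7 and 15.6 CPM over all 14 libraries, and its arms overlapped throughout. The means were 13.2 ± 1.89 CPM in early cells (SD, n = 8), 12.8 ± 1.13 CPM in parental cells (n = 3) and 12.5 ± 2.55 CPM in acute cells (n = 3). The early against parental log2 change was 0.05 ± 0.14 (adjusted p = 0.836), with a 95% interval from -0.25 to 0.34. In acute against parental cells the HRAS interval ran from -0.39 to 0.32. Among the acute libraries HRAS was 10.7 CPM without ligand, 11.3 CPM with FGF2 and 15.4 CPM with FL, 1 library each and so with no test.

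SOS1 (ENSG00000115904), the exchange factor recruited to activated receptors by the adaptor GRB2, was lowest in untreated cells. The parental libraries held 32.3, 31.1 and 25.9 CPM. The FGF2 early libraries held 37.1, 35.1, 44.8 and 58.7 CPM and the FL early ones 49.6, 42.9, 36.8 and 40.8 CPM. The acute libraries held 49.2 CPM without ligand, 38.3 CPM with FGF2 and 35.9 CPM with FL. Every drug-exposed library, early or acute, lay above every parental one, while early and acute libraries overlapped. SOS1 rose in early against parental cells by 0.54 ± 0.16 on the log2 scale (adjusted p = 0.0191), and in acute against parental cells by 0.47 ± 0.18 (adjusted p = 0.0384). Early against acute was not called, with a log2 change of 0.07 ± 0.15 and a 95% interval from -0.25 to 0.39. The early call was lost without parental replicate 2 (log2 change 0.57, adjusted p = 0.0587) or parental replicate 3 (0.45, adjusted p = 0.0937). The acute call held in 14 of 22 alternative settings. It was lost with no low-count filter (adjusted p = 0.064). It was also lost without any 1 of FGF2 early replicate 1, FL early replicate 1, the 3 parental libraries, the acute library without ligand or the acute library with FGF2 (adjusted p = 0.0502 to 0.176). The largest of these came without the acute library that had no ligand, with a log2 change of 0.32.

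PTPN11 (ENSG00000179295) encodes SHP2, a phosphatase that promotes RAS activation downstream of many receptors. The parental libraries held 286, 296 and 266 CPM, and the acute libraries 144, 145 and 144 CPM in the order no ligand, FGF2 and FL. The FGF2 early libraries held 247, 244, 243 and 238 CPM, and the FL early libraries 246, 276, 253 and 269 CPM. The acute libraries lay close together and below all others, while 2 FL early libraries reached into the parental range. PTPN11 fell by 0.97 on the log2 scale in acute against parental cells (SE 0.06, adjusted p = 9.98e-09), a 1.96-fold lower level. It was 1.74-fold higher in early than in acute cells (log2 change 0.80 ± 0.05, adjusted p = 1.27e-08). Both were called in every alternative setting. Early cells held slightly less than parental cells, with a log2 change of -0.17 ± 0.05 (adjusted p = 0.0238). That call was lost without parental replicate 1 (log2 change -0.16, adjusted p = 0.0991) or parental replicate 2 (-0.13, adjusted p = 0.15), and with no low-count filter (adjusted p = 0.0685). By line, the log2 change against parental cells was -0.22 ± 0.06 for FGF2 (adjusted p = 0.0108) and -0.11 ± 0.06 for FL (adjusted p = 0.173). The FGF2 call was lost without parental replicate 2 (adjusted p = 0.0659), and FGF2 against FL early was not called.

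CBL (ENSG00000110395), the receptor ubiquitin ligase, was highest in early resistant cells. The parental libraries held 81.3, 80.1 and 78.3 CPM. The FGF2 early libraries held 121, 108, 111 and 104 CPM and the FL early ones 104, 112, 99.3 and 93.1 CPM. The acute libraries held 70.9 CPM without ligand, 58.9 CPM with FGF2 and 57.9 CPM with FL. The 3 arms did not overlap, with early cells highest and acute cells lowest. CBL rose by 0.41 ± 0.08 in early against parental cells on the log2 scale (adjusted p = 0.00146), and by 0.76 ± 0.08 against acute cells (1.70-fold, adjusted p = 8.5e-07). It fell by 0.35 on the log2 scale in acute against parental cells (SE 0.09, adjusted p = 0.00354). The early calls held in every alternative setting. Without the acute libraries that had a ligand, acute against parental was not called (log2 change -0.17, adjusted p = 0.201). CBL rose against parental cells in each early line, by 0.47 ± 0.08 for FGF2 (adjusted p = 0.00109) and 0.35 ± 0.08 for FL (adjusted p = 0.0109).

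NF1 (ENSG00000196712) and RASA2 (ENSG00000155903), the GTPase-activating brakes on RAS, were not called in any of the 6 comparisons. NF1 lay between 49.0 and 80.8 CPM and RASA2 between 13.6 and 19.9 CPM over the 14 libraries. Mean NF1 was 66.6 ± 10.3 CPM in early cells (SD, n = 8), 65.6 ± 5.72 CPM in parental and 62.6 ± 4.06 CPM in acute cells (n = 3 each). Mean RASA2 was 17.4 ± 2.45, 16.9 ± 2.59 and 16.7 ± 1.42 CPM in the same order. The early against parental interval ran from -0.20 to 0.23 for NF1 and from -0.25 to 0.33 for RASA2 on the log2 scale, so changes within those bounds remain compatible with these data. Between the early lines, mean NF1 stood at 73.4 ± 7.87 CPM with FGF2 and 59.8 ± 8.0 CPM with FL (n = 4 each). The FGF2 libraries held 79.1, 64.2, 80.8 and 69.6 CPM and the FL libraries 61.6, 68.2, 60.3 and 49.0 CPM, which overlap. The log2 difference of 0.30 ± 0.10 missed the threshold (adjusted p = 0.073). It passed with DESeq2 (adjusted p = 0.0407), without FGF2 early replicate 2 (0.0483) and without FL early replicate 2 (0.0494).

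BRAF (ENSG00000157764), the RAF kinase of the set, was the only member called between the early lines, 1 of 8 where 13.6% of all genes were called, 4.0% with the higher level in FGF2 cells and 9.56% with the lower. The FGF2 early libraries held 39.3, 33.7, 39.0 and 40.2 CPM. The FL early libraries held 29, 32.8, 29.7 and 32.5 CPM, all below the FGF2 ones. BRAF was 1.23-fold higher with FGF2 (log2 difference 0.30 ± 0.09, adjusted p = 0.0462). The call held in 11 of 23 alternative settings, and adjusted p ran from 0.0198 to 0.121 over them. Leaving out any 1 of FGF2 early replicates 1, 3 and 4, FL early replicates 1, 2 and 3, parental replicates 2 and 3 or the acute library with FL ended it (adjusted p = 0.0514 to 0.121), as did leaving out FL early replicates 1 and 4 together (0.0954). The summed myeloid markers also separated these lines, with no FGF2 library above 763 CPM and no FL library below 1015 CPM. That gap lay mainly in LYZ, at 66.5 to 135 CPM in FGF2 early and 321 to 908 CPM in FL early libraries. SPI1 also separated them, at 108 to 130 and 145 to 179 CPM. CD33, FLT3, CSF1R and ANPEP overlapped between the lines, so the sum is not a shared shift of the markers. The parental libraries held 36, 31.0 and 30.6 CPM and the acute ones 40.6, 32.9 and 33.2 CPM. Parental libraries overlapped both early lines, while acute libraries overlapped the FGF2 line and lay above every FL early library only narrowly. The acute library with FGF2 was at 32.92 CPM and FL early replicate 2 at 32.85 CPM. Early against parental was not called (log2 change 0.08 ± 0.09, adjusted p = 0.536), and neither was FGF2 early against parental (0.23 ± 0.10, adjusted p = 0.0982).

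**Figure D2:**
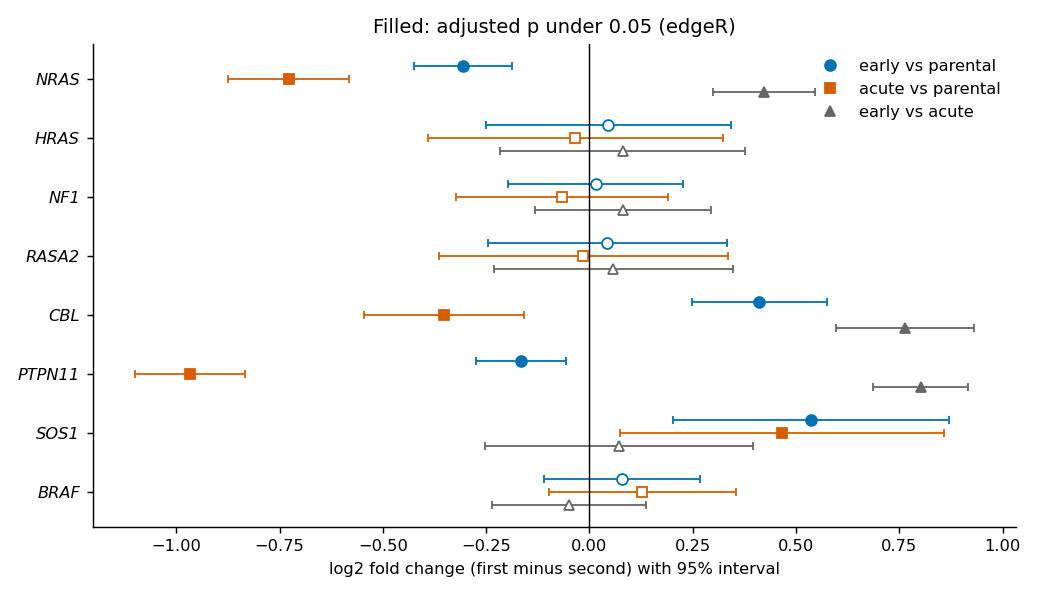
Log2 fold changes of the 8 members with their 95% intervals, for early against parental, early against acute and acute against parental cells. NRAS, CBL and PTPN11 lie below 0 in acute against parental cells and above 0 in early against acute cells, and the HRAS, NF1, RASA2 and BRAF intervals cross 0 in all 3 comparisons.

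Split by ligand, FGF2 early cells had 2 members higher and 2 lower than parental cells, where 30.4% of all genes were called, 13.3% higher and 17.1% lower. FL early cells had 2 higher and 1 lower, where 20.7% were called, 10.9% higher and 9.76% lower. The members higher in each were CBL and SOS1. The SOS1 rise in the FL line was 0.51 ± 0.17 on the log2 scale (adjusted p = 0.0488), and it held in only 8 of 23 alternative settings (adjusted p = 0.0228 to 0.171). It was lost without FGF2 early replicate 3, FL early replicates 1, 2 or 4, any parental library, or the acute library with FGF2 or with FL (adjusted p = 0.053 to 0.16). The choice of method also ended it with all libraries kept. Adjusted p was 0.0539 with RLE size factors, 0.0612 with upper quartile scaling, 0.057 with limma-voom and 0.0626 with no low-count filter. With a block for replicate number (11 libraries) it was 0.0925. In the FGF2 line the SOS1 rise was 0.56 ± 0.17 (adjusted p = 0.0243). It was lost without FGF2 early replicate 4 (log2 change 0.39, adjusted p = 0.0686), parental replicate 2 (0.0585) or parental replicate 3 (0.097), and with the replicate block (0.0669). FGF2 early replicate 4 had the highest SOS1 level of all libraries, 58.7 CPM.

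Per kilobase of transcript, PTPN11 had the highest mean of the members and RASA2 the lowest, whether CPM was divided by the median length of a gene's protein-coding transcripts or by the longest. In parental cells, with the median length, PTPN11 stood at 218 ± 11.9 CPM per kb (SD, n = 3). NF1 followed at 25.4 ± 2.22, CBL at 23.1 ± 0.441 and NRAS at 22.3 ± 1.49 CPM per kb, and these neighbours did not differ beyond their spread. BRAF at 12.7 ± 1.18 and HRAS at 11.6 ± 1.03 CPM per kb also lay within their spread, as did SOS1 at 4.79 ± 0.548 and RASA2 at 4.14 ± 0.634 CPM per kb. With the longest transcript, PTPN11 was 46.3 CPM per kb, NRAS 22.3 and NF1 5.28, so the order between the first and the last depended on the length used. With that length SOS1 at 3.50 ± 0.400, BRAF at 3.40 ± 0.315 and RASA2 at 3.01 ± 0.462 CPM per kb lay within their spread. As a ratio, the 2 lengths differ most for NF1, 2577 and 12425 bases, and PTPN11, 1297.5 and 6101 bases.

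**Figure D3:**
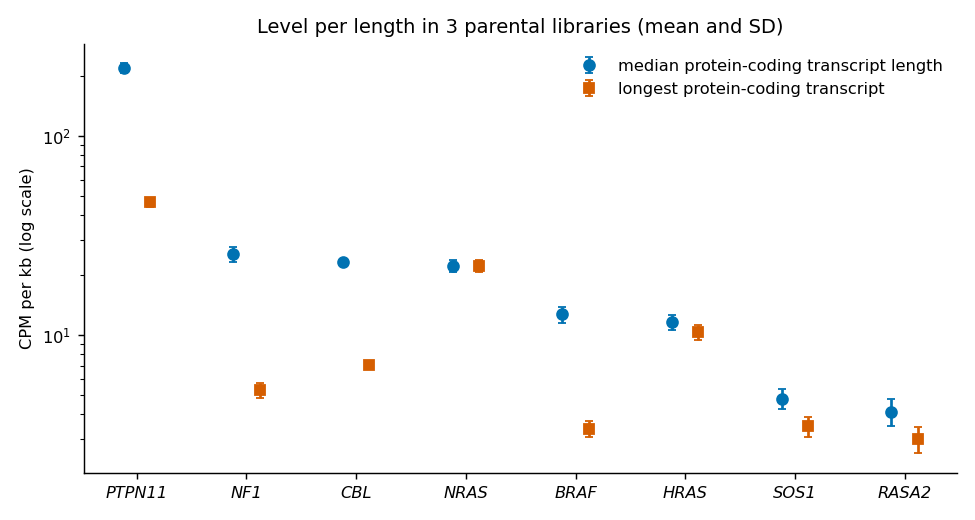
Parental levels of the 8 members in CPM per kilobase on a log axis, with CPM divided by the median or by the longest protein-coding transcript length. Points are means and bars the SD of 3 libraries. By mean, PTPN11 is highest and RASA2 lowest with either length, although RASA2 lies within the spread of SOS1. NF1, CBL and BRAF move down with the longest.

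The genes most like each member over the 14 libraries were found by Pearson correlation of log2 CPM among 9195 genes, as a description, since the libraries share arms and depth. NRAS was most like POLR2K (r = 0.988) and HIGD1A (0.986), and PTPN11 most like AURKA (0.993) and HNRNPA2B1 (0.991). CBL was most like MARCHF6 (0.969) and IKZF1 (0.960), BRAF most like PHACTR4 (0.903) and ZC3H12C (0.896), and SOS1 most like BRD8 (0.887) and TOR1AIP1 (0.840). For members not called in early against parental cells other than BRAF, the highest correlations were lower, at 0.796 for HRAS with UNC93B1, 0.764 for NF1 with WNK1 and 0.707 for RASA2 with METTL9. Their next were RBBP6 for HRAS (0.706), INO80D for NF1 (0.764) and MAP3K4 for RASA2 (0.620). Among the members themselves, NRAS and PTPN11 were most alike (r = 0.923), CBL and PTPN11 reached 0.693, and the 2 GTPases NRAS and HRAS stood at 0.007.

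Around the members, 7 lists of pathway genes were read in the same fit, with levels as mean ± SD over 8 early, 3 parental and 3 acute libraries. Over all genes tested, 29.8% were called in early against parental cells (median log2 change 0.01), 66.0% in early against acute cells (-0.04) and 62.6% in acute against parental cells (0.07), and each list's share of called genes is to be read beside these. Of 9 further RAS family GTPases, 3 rose and 2 fell in early against parental cells, and 4 were higher and 4 lower than in acute cells, which makes 55.6% and 88.9% called. Their median log2 change was 0.07 against parental and 0.20 against acute cells. RALB, an effector-side GTPase of the RAL branch, was 56.4 ± 4.93 CPM in the early arm against 41.6 ± 1.0 CPM in the parental arm (log2 change 0.44, adjusted p = 5.28e-04). MRAS, which forms a phosphatase complex with SHOC2, was 16.1 ± 2.03 CPM in the early arm against 51.8 ± 14.9 CPM in the acute arm (-1.68, adjusted p = 1.37e-07). RAP1B, a GTPase of adhesion signalling, was 179 ± 26.1 CPM in the early arm against 97.3 ± 9.55 CPM in the acute arm (0.87, adjusted p = 1.67e-07). RRAS2 was low everywhere, at 74, 53 and 54 counts in the parental libraries, 24, 17 and 15 in the acute ones, 40, 2, 22 and 3 in the FL early ones and 1, 0, 0 and 0 in the FGF2 early ones. Its parental level was 252 times that of the FGF2 early line, with a counting interval from 44.7 to 10013, and 3.64 times that of the FL early line (2.73 to 4.89). FL early replicate 1 held most of the FL counts, and without it the latter ratio was 6.96 (4.63 to 10.9). RRAS2 fell in early against parental cells by the test, but the fitted size depends on the prior count and is not given.

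Among GTPase-activating proteins and their partners, 11 of 12 were tested. In early against parental cells 2 rose and 1 fell (27.3% called, median log2 change 0.17), and against acute cells 5 were higher and 4 lower (81.8%, median -0.17). RASA3 was 162 ± 16.5 CPM in the early arm against 124 ± 6.31 CPM in the parental arm (log2 change 0.38, adjusted p = 0.00206). RASA4 was 18.3 ± 4.20 CPM in early, 10.2 ± 1.71 CPM in parental and 44.7 ± 0.737 CPM in acute cells, with log2 changes of 0.82 (adjusted p = 2.67e-04) and -1.31 against the latter. RASA4 has near-identical copies, so reads may be split between them and its level is uncertain. RASAL3 was 51.8 ± 5.27 CPM in the early arm against 100 ± 8.24 CPM in the acute arm (-0.95). Of 7 exchange factors, 3 rose and none fell against parental cells (42.9% called, median 0.25), while 1 was higher and 4 lower than in acute cells (71.4%, near the share of all genes, median -0.70). In acute against parental cells 4 rose and 1 fell (71.4%, median 1.44). RASGRP1, RASGRP3, RASGRF1 and RASGRF2 stayed under 2 CPM in every library, so these medians rest largely on genes near the floor. RASGRP2, an exchange factor that acts mainly on RAP1, was 146 ± 21.0 CPM in early, 95.3 ± 7.52 CPM in parental and 24.4 ± 3.27 CPM in acute cells, with log2 changes of 0.61 (adjusted p = 4.25e-04) and 2.58 (adjusted p = 9.93e-11). RASGRP4, a RAS exchange factor of myeloid and mast cells, was 11.1 ± 3.17 CPM in the early arm against 5.52 ± 0.982 CPM in the parental arm (0.98, adjusted p = 0.0029). RASGRP3 was under 2 CPM in all arms, at 0.489 ± 0.117 CPM in the early arm against 1.49 ± 0.356 CPM in the acute arm (-1.61, adjusted p = 5.98e-05).

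Of 15 adaptors, phosphatases and ubiquitin ligases near the receptor, 3 rose and 2 fell in early against parental cells (33.3% called, median log2 change 0.13), and 3 were higher and 8 lower than in acute cells (73.3%, median -0.24). SHC1, the adaptor that brings GRB2 to receptors, was 136 ± 4.34 CPM in the early arm against 115 ± 7.67 CPM in the parental arm (0.25, adjusted p = 0.00556). SYK, a cytoplasmic tyrosine kinase, was 181 ± 18.2 and 145 ± 3.05 CPM (0.31, adjusted p = 0.00858). GAB2, a docking protein of SHP2, was 64.1 ± 11.2 CPM in the early arm against 158 ± 7.88 CPM in the acute arm (-1.31, adjusted p = 1.96e-08), and its relative GAB3 8.23 ± 1.10 and 17.9 ± 1.44 CPM (-1.12, adjusted p = 1.26e-06).

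In the RAF, MEK and ERK cascade with its scaffolds, 14 of 15 genes were tested, and 1 rose and 6 fell in early against parental cells (7 of 14 called, median log2 change -0.06). Against acute cells 4 were higher and 4 lower (57.1%, median 0.13). The scaffold KSR1 was 15.8 ± 7.69 CPM in the early arm against 44.3 ± 5.90 CPM in the parental arm (-1.54, adjusted p = 4.94e-04). KSR1 was 12.3, 29.9, 25.6 and 13.4 CPM in FL early replicates 1 to 4, low in the 2 replicates that stood apart. It was as low in the whole FGF2 line, at 10.4, 11.5, 8.55 and 14.8 CPM. PEBP1, also known as RAF kinase inhibitor protein, was 289 ± 55.3 and 453 ± 10.9 CPM (-0.67, adjusted p = 1.02e-04). KSR1 promotes and PEBP1 restrains signalling through this cascade, and both fell. RPS6KA2, which encodes a kinase activated by ERK, was 1.82 ± 0.810 CPM in the early arm against 16.6 ± 2.16 CPM in the acute arm (-3.25, adjusted p = 9.89e-09), and MAP2K2, which encodes MEK2, 123 ± 6.87 and 189 ± 15.1 CPM (-0.62, adjusted p = 6.69e-07). Among 9 genes of RAS lipid processing and membrane delivery, 1 rose and 1 fell against parental cells (22.2% called, median 0.04), and 2 were higher and 1 lower than in acute cells (33.3%, median 0.11). LYPLA1, a thioesterase, was 75.3 ± 6.61 CPM in early, 56.2 ± 3.86 CPM in parental and 35.9 ± 2.31 CPM in acute cells, with log2 changes of 0.42 (adjusted p = 0.00162) and 1.07. ICMT, the methyltransferase of the last step of RAS tail processing, was 92.7 ± 6.46 CPM in early, 117 ± 1.85 CPM in parental and 28.7 ± 3.24 CPM in acute cells (-0.33, adjusted p = 0.00236, and 1.69, adjusted p = 2.24e-10).

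Transcripts known to depend on ERK were read as a list of 10, of which 9 were tested. Against parental cells none rose and 2 fell (22.2% called, median log2 change -0.35). DUSP4, a phosphatase that inactivates ERK, was 1.08 ± 0.514 CPM in the early arm against 6.04 ± 0.172 CPM in the parental arm (-2.50, adjusted p = 1.29e-04). PHLDA1 was 2.88 ± 0.937 and 6.10 ± 0.799 CPM (-1.12, adjusted p = 4.93e-04). Against acute cells 6 were higher and 2 lower in early cells (88.9% called, median 0.73). In acute against parental cells 1 rose and 5 fell (66.7%, near the 62.6% of all genes, median -0.90). SPRY4, a feedback inhibitor of RAS signalling, was 12.3 ± 3.74 CPM in the early arm against 1.02 ± 0.772 CPM in the acute arm (3.56, adjusted p = 8.51e-07). DUSP4 moved the other way, at 13.3 ± 5.57 CPM in acute cells (-3.63 in early against acute cells), so members of the list did not all share a direction. That acute mean joins 6.85 CPM without ligand, 16.9 CPM with FGF2 and 16.1 CPM with FL, 1 library each and so with no test. Parental DUSP4 was 5.95, 6.24 and 5.94 CPM. In the same acute order CCND1 was 0.0328, 3.68 and 4.12 CPM, while PHLDA1 was 6.69, 6.01 and 7.08 CPM. SPRY2 was 23.7, 42.6 and 31.8 CPM, SPRY4 0.426, 1.89 and 0.731 CPM and DUSP6 31.0, 83.7 and 56.4 CPM. ETV4 was 0.131, 1.72 and 0.269 CPM and ETV5 2.72, 15.2 and 10.7 CPM. EPHA2 was 0.0328, 1.51 and 0.154 CPM and EPHA4 0.197, 0.137 and 0.385 CPM. The acute mean of SPRY4 and the list medians that involve acute cells join these ligand states.

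**Figure D4:**
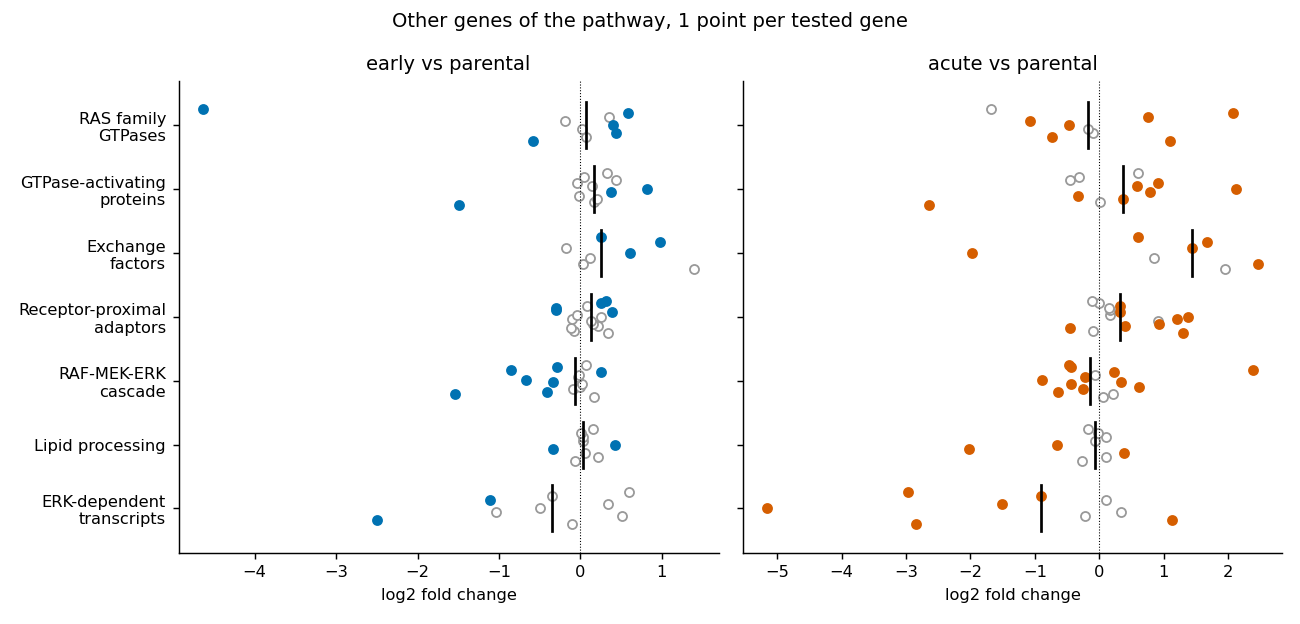
Log2 fold changes of the tested genes of the 7 pathway lists in early against parental cells (left) and acute against parental cells (right). Points are genes, filled where called, and the vertical bar in each row is the median; the leftmost GTPase point on the left is RRAS2, whose fitted size depends on the prior count. The ERK-dependent transcripts have medians of -0.35 and -0.90, and the exchange factors, several of which were barely expressed, 0.25 and 1.44.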

How the data were processed

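Poly(A) RNA was prepared with a stranded TruSeq kit and sequenced on an Illumina NovaSeq, per the labels' protocols. The authors quantified reads with kallisto, and GRCh37 is the build given, per the submitters' processing notes. The values deposited by the authors are estimated counts for each Ensembl gene, still on the scale of each library's depth (totals 25723575 to 33075041). How transcripts were summed to genes is not given in the sources used here. Genes with 1 annotated transcript had low values near 1 per read whatever their length (median 1.0 at 200 to 1000 bases, 0.999 at 1000 to 10000 bases), so levels still scale with length.

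Symbols and transcript lengths came from GENCODE 29 (33353 of 39293 identifiers matched, 84.9%), and promoter windows from RefSeq GRCh38.p14, where 5 of 8 members matched. Both are of another build than the counts, so no coordinate was joined to a count. Estimated counts were rounded, filtered with filterByExpr (minimum count 10, minimum total 15) and fitted with edgeR 4.0.16 in R 4.3.3. The fit used TMM scaling and a robust quasi-likelihood test over all 14 libraries in 4 arms, with Benjamini-Hochberg adjustment at 0.05. Early against a control averages both early arms. DESeq2 1.42.0, limma 3.58.1 (voom), other scalings and filters, and leaving out each library were alternatives. The code was tested on simulated data.

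The members and lists were chosen with earlier results of these data known. All members are named. From each list, the 2 genes of smallest adjusted p in early against parental and the 2 in early against acute are named, and for each member the 2 most correlated genes with a mean log2 CPM of at least 3. No 2 libraries agreed within sampling noise (lowest mean chi-square per gene 5.40). The counts behind the members ran from 323 (HRAS) to 8887 (PTPN11) per library. Pseudogene identifiers of NF1 were at 0 CPM, and those of PTPN11 and BRAF reached at most 0.0998 and 0.150 CPM. Replicate numbers did not pair libraries: same-numbered libraries had correlations of their deviations from -0.094 to 0.066 over 10 pairs. Counting intervals for RRAS2 are exact 95% intervals and cover counting error only.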

Additional observations from a re-analysis of the deposited data

Results flagged for a closer look

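In groups of 4 libraries, a library was marked when its distance from the nearest other took up most of the group's range. Chance marks about 1 in 20 groups, and 3 of 62 groups checked were marked. RASA4 was 25.9 CPM in FGF2 early replicate 1 and 19.9 to 20.9 CPM in the other FGF2 early libraries. RASAL3 was 44.7 CPM in FL early replicate 4 and 54.5 to 56.3 CPM in the other FL early libraries. RRAS2 was 0.0291 CPM, which is 1 count, in FGF2 early replicate 1 and at 0 in the others of that arm.

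The early lines also differed by a direct test of FGF2 early against FL early in 9 of the 31 named genes (edgeR, adjusted p under 0.05), where 13.6% of all genes were called. The named genes other than the members were picked for a small adjusted p in comparisons that use the same early libraries, so this count is not read against that share. BRAF was higher with FGF2 by 0.30 on the log2 scale, GAB2 by 0.36 and RASA4 by 0.55. The log2 difference was -0.32 for RASGRP2, -0.35 for RAP1B, -0.49 for PEBP1, -0.64 for PHLDA1 and -0.83 for RPS6KA2, all lower with FGF2. RRAS2 had a fitted difference of -5.62, a size that depends on the prior count since 3 of 4 FGF2 libraries were at 0; the FL early level was 69.3 times the FGF2 early level by counts, with an interval from 12 to 2779. FL early replicate 1 held most of the FL counts (40, beside 2, 22 and 3), and without it the ratio was 36.2 (5.97 to 1483).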

How the results depend on the processing

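NRAS and CBL kept their early against parental calls under all 23 alternatives. Members called in early against parental numbered 4, and 2 under the replicate block (11 libraries), where PTPN11 (adjusted p = 0.0511) and SOS1 (0.0522) were lost. Genes called were 1901 higher and 2371 lower with the block and 2369 and 2764 in the same libraries without it. No paired analysis was possible for acute cells because their libraries all carry number 1. Members called in FGF2 early against FL early numbered 1, and 0 with no filter, 2 with DESeq2, 0 under the replicate block and 0 with FL early replicates 1 and 4 left out together, a choice made after seeing that these libraries stood apart, which gave 3498 genes called.

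Direction turned only in member log2 changes that were not called, and the named genes that are no members kept direction and call in all 644 values computed for them. Those values cover only the comparison in which each gene was picked for its small adjusted p. Their calls were thus likely to hold by the choice itself, and they are not set against the members. The calls of these genes in FGF2 early against FL early are not covered. In early against parental, NF1 was -0.00040 with RLE size factors and -0.00041 with DESeq2. With upper quartile scaling, early against acute was -0.042 for HRAS, -0.040 for NF1, -0.065 for RASA2 and -0.052 for SOS1, and acute against parental was 0.073 for HRAS, 0.041 for NF1 and 0.095 for RASA2. SOS1 in early against acute was -0.19 with the acute library without ligand alone, and BRAF 0.014 without FL early replicates 1 and 4. RASA2 in FGF2 early against FL early was 0.0015 with upper quartile scaling and 0.0013 with scaling without ribosomal protein and mitochondrial genes.

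Leaving out 1 library at a time, early against parental gave 2685 to 5337 genes called (fewest without parental replicate 2) and 2 to 4 members. FL early against parental gave 1512 to 3943 genes, FGF2 early against FL early 1351 to 3274 genes and 0 to 2 members, and FGF2 early against parental 2 to 4 members. The early against parental ranges were -0.018 to 0.11 for HRAS, -0.055 to 0.063 for NF1 and -0.043 to 0.17 for RASA2. In early against acute they were -0.019 to 0.26 for HRAS, -0.015 to 0.22 for SOS1 and -0.093 to 0.056 for BRAF. In acute against parental they were -0.22 to 0.065 for HRAS and -0.11 to 0.11 for RASA2. Against parental, FGF2 early gave -0.12 to 0.022 for HRAS and -0.047 to 0.17 for RASA2, and FL early -0.040 to 0.17 for RASA2 and -0.11 to 0.0091 for BRAF. FGF2 early against FL early gave -0.11 to 0.091 for RASA2 and -0.12 to 0.14 for SOS1.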
